A study of Mus musculus with 458 samples.

Results

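Cd34 was followed as 1 gene of the 22645 in the deposited expression table, over every deposited single haematopoietic stem cell (HSC). It was chosen by its symbol, and its values were read by reconstitution type and by mouse. A cell was counted as having Cd34 RNA at 1 RPKM or more. RPKM is a level per length: the reads of a gene are divided by its kilobases and by the read total of the cell.

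CD34 is a transmembrane sialomucin, a heavily glycosylated surface protein that can serve as a ligand of selectins and can hinder or aid adhesion. In human bone marrow it is the classical surface marker of stem and progenitor cells, and it is also made by vascular endothelium. In adult mice the most primitive HSCs carry little of it, while short-term HSCs and multipotent progenitors carry more, so CD34 is used to part these cells in the mouse.

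Every mouse had received 1 Vwf+ HSC of C57BL/6 origin, and the blood lineages made by its progeny were followed over 16 weeks. Vwf encodes von Willebrand factor, a clotting protein that also marks platelet-biased HSCs. In PLT mice the transplanted cell had replenished platelets alone, in PEM mice platelets, red cells and myeloid cells, and in MUL mice every lineage. Donor-derived HSCs with the phenotype LSK CD150+CD48-CD45.2+ were then index sorted from recipient marrow, where CD45.2 marks the donor. Each type was thus represented by 2 mice, and each mouse by the daughters of a single clone. PLT mouse 1 gave 93 cells and PLT mouse 2 gave 84. PEM mouse 1 gave 93 cells and PEM mouse 2 gave 25. MUL mouse 1 gave 78 cells and MUL mouse 2 gave 85. PLT mouse 2 and PEM mouse 2 were recorded as female and the other 4 mice as male. Both MUL mice share 1 title prefix and the other 4 mice have 4 further prefixes. The prefix is read here as the experiment, which the titles do not spell out. On that reading experiment and type cannot be told apart.

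Mapped reads per cell ran from 1.298 to 17.26 M (M, mega), with a median of 4.901 M. The mouse medians averaged 4.845 M in PLT, 4.799 M in PEM and 4.797 M in MUL. Detected genes per cell averaged 2232 ± 514 in PLT, 2969 ± 307 in PEM and 2381 ± 243 in MUL (SD of mouse medians, n = 2 each). At least 3 of 8 HSC marker genes were at 1 RPKM or more in 257 cells, 56.1% of all, and in 62 of the 87 cells with Cd34 RNA. Vascular endothelium and mast cells also make CD34. Among their single markers, Cdh5, Cav1, Mcpt8, Prss34 and Tpsb2 reached 1 RPKM in 0 cells. Others did reach it: Pecam1 in 57 cells (17 with Cd34 RNA), Emcn in 36 (9) and Cpa3 in 11 (4). No cell had 3 of 8 endothelial markers or 3 of 8 mast cell and basophil markers. Markers of other types at that count were found in 67 cells, mainly megakaryocyte (34 cells, 3 of them with Cd34 RNA) and neutrophil genes (20 cells, 0 of them with Cd34 RNA). PEM mouse 2 held the largest part for its size: without such cells 14 of its 25 cells remained, and its neutrophil markers summed to a mean of 15103 RPKM, against 33.5 to 2929 RPKM in the other mice. Its Cd34 mean was 44.1 RPKM without these cells and 28.5 RPKM with them. The means of the other mice without them were 1.76 and 15.5 RPKM in PLT, 37 RPKM in PEM mouse 1, and 104 and 125 RPKM in MUL.

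On mm10 Cd34 runs on the plus strand of chromosome 1 from 194938819 to 194961279, in GENCODE M21. Of its 5 annotated transcripts, 2 code for protein, with 8 exons each. Their last exons begin at 194959936 and at 194959780, and the deposited value does not separate them. The 3' end overlaps the antisense gene Gm16897 over 5521 bases. The library kit named in the labels does not mark strand, so reads in that overlap could belong to either gene. Gm16897 reached 1 RPKM in 9 cells, and 9 of the 9 also had Cd34 RNA, at 56.2 to 715 RPKM. Its mean stayed between 0 and 1.72 RPKM in the 6 mice, far below Cd34 in each mouse.

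The stretch just before the first annotated base of Cd34 is shown because it lies next to the start of the RNA that is measured. RefSeq (GRCm38.p6) gives it as chr1:194938571-194938818 on the plus strand, 248 bases, 46.4% G and C, against a median of 52.4% over 32851 mouse promoters trimmed to the same length. Capitals mark GGAA, the core letters bound by ETS factors, or AACNG, those bound by MYB, each read on both strands.
Cd34 promoter: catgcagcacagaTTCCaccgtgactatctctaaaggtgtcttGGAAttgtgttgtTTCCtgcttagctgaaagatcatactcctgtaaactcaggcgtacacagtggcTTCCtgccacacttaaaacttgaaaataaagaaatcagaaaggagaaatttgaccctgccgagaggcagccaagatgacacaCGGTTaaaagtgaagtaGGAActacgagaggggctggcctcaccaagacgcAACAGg
GGAA matched 5 times and AACNG 2 times, with no overlap between the motifs. At least 1 match stood in 93.3% and 74.0% of all promoters of that length, so such matches are common. GATAA (22.5% of promoters), CANNTG (66.0%) and TATAAA (12.3%) had 0 matches here.

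Cd34 RNA was either abundant or close to nothing in a cell. Of all cells, 241 were listed at 0, 130 held a trace under 1 RPKM, and 87 were at 1 RPKM or more. The values moved in whole steps, and with the smallest step taken as 1 read, 131 of the 131 values under 50 reads lay within 0.02 of a whole number. One read was worth a median of 0.103 RPKM. On that scale 67 trace cells held 1 read, 31 held 2, 17 held 3, and the largest trace was 15 reads. The lowest cell at 1 RPKM or more held 17 reads, and the other 86 held from 186 to 7963. Across all 87 the median was 1992 reads. Between the traces and the cells with Cd34 RNA there was therefore a gap with few cells in it.

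**Figure D1:**
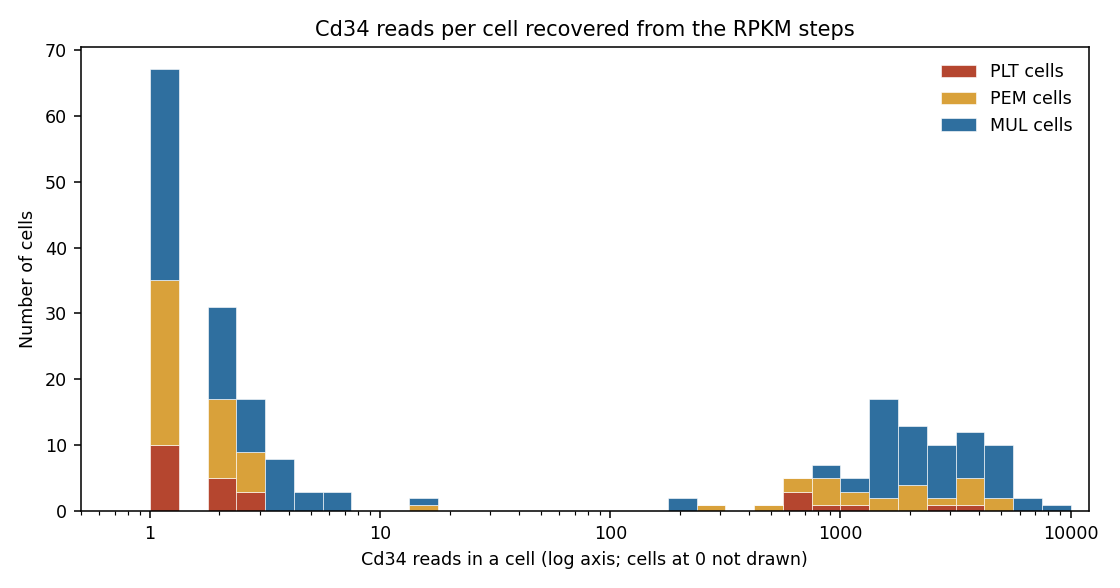
Number of cells (vertical axis) by their number of Cd34 reads (horizontal axis, log scale), stacked as PLT, PEM and MUL cells, with cells at 0 left out. Most cells hold either 1 to 6 reads or at least 186.

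The threshold of 1 RPKM fell in that gap. Just below it were a MUL mouse 2 cell at 0.991 RPKM (5 reads) and a PEM mouse 1 cell at 0.942 RPKM (15 reads). Just above it were a MUL mouse 1 cell at 2.26 RPKM (17 reads) and a MUL mouse 2 cell at 23.4 RPKM (186 reads). Shares of cells at 10 RPKM or more were recomputed, and every difference between types in that share moved by less than the spread between mice.

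Cells with Cd34 RNA were rare in PLT mice, more frequent in PEM mice and most frequent in MUL mice. They made up 1 of 93 cells (1.08%) in PLT mouse 1 and 6 of 84 (7.14%) in PLT mouse 2. In PEM mouse 1 they made up 19 of 93 cells (20.4%) and in PEM mouse 2 4 of 25 (16%). In MUL mouse 1 they made up 22 of 78 cells (28.2%) and in MUL mouse 2 35 of 85 (41.2%). No mouse of one type overlapped a mouse of another in this share.

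The exact Clopper-Pearson 95% intervals, which cover counting error only, ran from 0.0272 to 5.85% and 2.67 to 14.9% in the PLT mice. They ran from 12.8 to 30.1% and 4.54 to 36.1% in the PEM mice, and from 18.6 to 39.5% and 30.6 to 52.4% in the MUL mice. Neighbours in the order of mice had overlapping intervals: PLT mouse 2 with both PEM mice, and PEM mouse 1 with MUL mouse 1. Both PLT intervals lay below both MUL intervals. PEM mouse 2, with 25 cells, had an interval that reached into those of both other types.

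**Figure D2:**
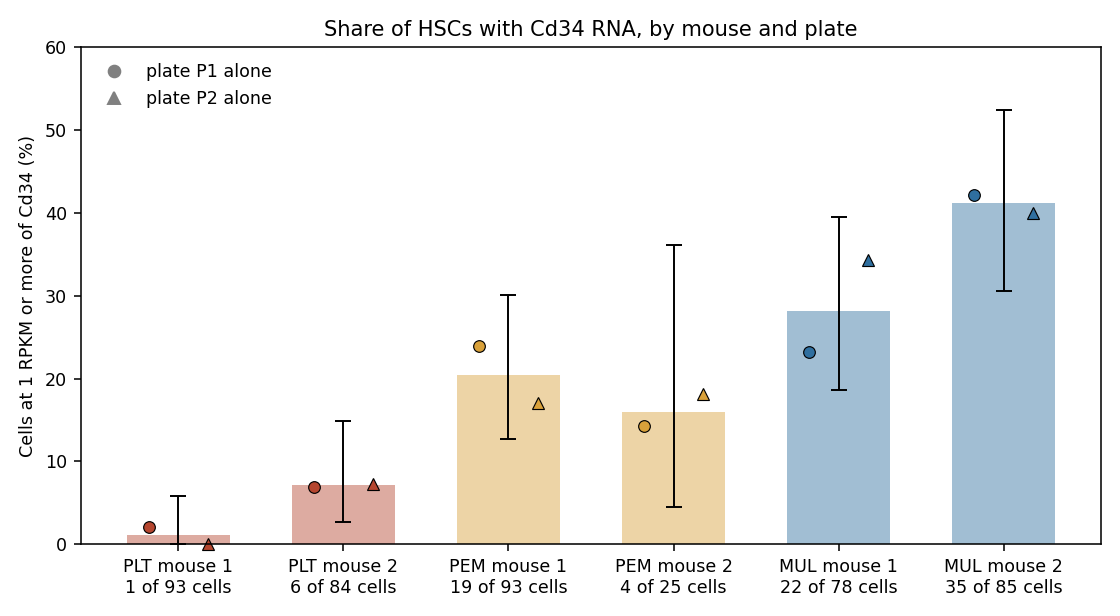
Bars give the percent of a mouse's HSCs at 1 RPKM or more of Cd34, with exact 95% intervals for counting error. Circles and triangles give the same percent on plate P1 and plate P2 alone. Both PLT mice lie below both PEM mice, and both PEM mice below both MUL mice.

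The mean share was 4.11 ± 4.29% in PLT, 18.2 ± 3.13% in PEM and 34.7 ± 9.17% in MUL (SD, n = 2 mice each). PLT was 30.6 percentage points below MUL, PEM 16.5 points below MUL, and PLT 14.1 points below PEM. With 2 mice on each side, the smallest p an exact two-sided permutation test can give is 0.333, so these shares were not tested. Without MUL mouse 2 the difference between PEM and MUL was -9.99 points, well under the 16.5 points with both MUL mice.

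The share was also counted on each plate. Cells of each mouse carry P1 or P2 in their titles, read here as 2 plates, which the titles do not spell out. In PLT mouse 1 the share was 2.13% on P1 (1 of 47 cells) and 0 of 46 cells on P2, which allows a share of up to 7.71%. In PLT mouse 2 it was 6.98% on P1 and 7.32% on P2. PEM mouse 1 had 23.9% and 17.02%, and PEM mouse 2 had 14.3% and 18.2%, on P1 and P2. MUL mouse 1 had 23.3% and 34.3%, and MUL mouse 2 had 42.2% and 40%. On P1 the share of PEM mouse 1 (23.9%) lay above that of MUL mouse 1 (23.3%), so PEM and MUL mice overlapped there. They did not overlap on P2. No PLT plate reached the share of the lowest PEM plate, which rests on 2 of 14 cells.

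A second difference lay in the level within cells that had Cd34 RNA. By mouse median, both MUL mice lay above both PEM mice and both PLT mice. The single PLT mouse 1 cell was at 137.0 RPKM and the 6 cells of PLT mouse 2 had a median of 124 RPKM (75.2 to 363). The median was 139 RPKM (31.4 to 818) in PEM mouse 1 and 159 RPKM (92.8 to 300.1) in PEM mouse 2. It was 334 RPKM (2.26 to 924) in MUL mouse 1 and 247 RPKM (23.4 to 717) in MUL mouse 2. Within a plate the order did not always hold. The 3 Cd34 cells of PLT mouse 2 had a median of 77.4 RPKM on P1 and 361.5 RPKM on P2, and the P2 value lay above the 266 and 232 RPKM of MUL mice 1 and 2 on that plate.

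Mouse medians among these cells averaged 131 ± 8.84 RPKM in PLT, 149 ± 13.8 in PEM and 290 ± 61.9 in MUL (SD, n = 2). The mice of different types did not overlap in the median, but the ranges of single cells did. By the mean of the same cells, PLT and PEM mice overlapped. MUL medians were 2.22 times those of PLT and 1.95 times those of PEM, while PEM medians were 1.14 times those of PLT. The PLT medians rest on 7 cells in all.

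**Figure D3:**
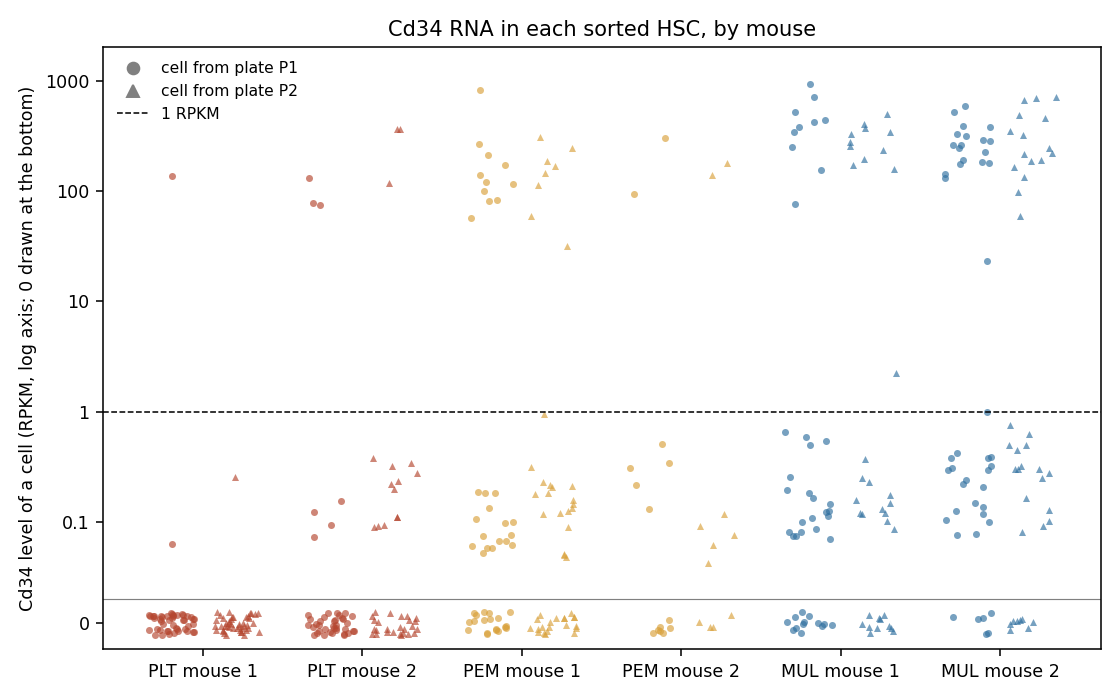
Each point is 1 HSC, with its Cd34 level in RPKM on a log axis, cells at 0 drawn in the band at the bottom, and plates P1 and P2 as circles and triangles. The dashed line is 1 RPKM. Cells above it number 7 in PLT, 23 in PEM and 57 in MUL mice, and the MUL cells reach 924 RPKM.

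Share and level together gave the mouse means. PLT mouse 1 had a mean of 1.48 RPKM and PLT mouse 2 of 13.4 RPKM. The PEM mice had 36.9 and 28.5 RPKM, and the MUL mice 95.6 and 121.5 RPKM. The 3 types did not overlap, in the order PLT, PEM, MUL. One cell supplied 99.8% of the Cd34 RPKM of PLT mouse 1, 32.2% of PLT mouse 2, 23.9% of PEM mouse 1 and 42.1% of PEM mouse 2. In the MUL mice the top cell supplied 12.4% and 6.94%.

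The mean of PLT was 7.46 ± 8.46 RPKM and that of MUL 109 ± 18.3 RPKM (SD, n = 2), a ratio of MUL over PLT of 14.6. The ratio of MUL over PLT was 8.44 for the share of cells. Among cells with Cd34 RNA it was 2.22 for the median level and 1.95 for the mean level. As ratios of averages over mice, here and below, they need not multiply to the ratio of the means. On the log2(mean RPKM + 1) scale PLT was lower by 4.19 ± 0.79 (SE), which ranked 20 of 11337 genes by p. This did not pass limma's test with Benjamini-Hochberg adjustment (p = 0.000628, adjusted p = 0.342). That fit called 0.00882% of genes, which was 1 gene, Ctla2b, and 953 genes had an unadjusted p under 0.05. Both PLT mice lay below both MUL mice in 24.9% of all genes tested, and the median change over all genes was -0.18. Without PLT mouse 1 the log2 difference was -2.91, and without PLT mouse 2 it was -5.46 (limma adjusted p = 0.322 and 0.108).

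Between PEM and MUL, the means were 32.7 ± 5.92 and 109 ± 18.3 RPKM, a ratio of MUL over PEM of 3.32. The MUL over PEM ratio was 1.90 for the share of cells. Among cells with Cd34 RNA it was 1.95 for the median level and 1.77 for the mean level. The log2 difference of -1.70 ± 0.79 (SE) did not pass limma's test (p = 0.0612, adjusted p = 0.868). No gene passed in that fit (0% called, with 634 genes at an unadjusted p under 0.05), and 18.3% of genes had both PEM mice below both MUL mice.

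Between PLT and PEM, the means were 7.46 ± 8.46 and 32.7 ± 5.92 RPKM, a ratio of PEM over PLT of 4.38. Here the ratio was 4.43 for the share of cells. Among cells with Cd34 RNA it was 1.14 for the median level and 1.10 for the mean level. The log2 difference of -2.48 ± 0.79 (SE) did not pass limma's test (p = 0.0129, adjusted p = 0.549). That fit called 0% of genes, with 949 at an unadjusted p under 0.05, and 21.9% of genes had both PLT mice below both PEM mice. Without PLT mouse 1 the log2 difference was -1.21 and without PLT mouse 2 it was -3.75 (limma adjusted p = 0.591 and 0.403). The order PLT below PEM below MUL with no overlap between mice was found in 213 genes (1.88%), and the opposite order in 102 (0.9%). These 3 comparisons share their mice and do not support each other.

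The number of genes detected in a cell moved with the Cd34 share, and its part in the result was not tested. Cells with 3000 or more detected genes had Cd34 RNA in 3 of 27 cases in PLT (11.1%), 18 of 64 in PEM (28.1%) and 16 of 29 in MUL (55.2%). Between 2000 and 3000 genes the shares were 4% (3 of 75), 9.30% (4 of 43) and 39.2% (38 of 97). Below 2000 genes they were 1.33% (1 of 75), 9.09% (1 of 11) and 8.11% (3 of 37). The exact 95% intervals there ran from 0.230% to 41.3% in PEM and from 1.70% to 21.9% in MUL, too wide to order them. Each of these shares pools the cells of 2 mice, so the intervals cover counting error alone. In cells with 1800 to 3000 detected genes the mouse means were 0.00576 and 17.4 RPKM in PLT, 6.40 and 43.4 RPKM in PEM, and 114 and 109 RPKM in MUL. There PLT and PEM mice overlapped, and MUL mice lay above both.

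Sequencing depth did not follow the same pattern. Under 4 M mapped reads the shares, again over the pooled cells of 2 mice, were 6.82% in PLT, 18.2% in PEM and 40% in MUL. Between 4 and 6 M they were 3.85%, 29.7% and 40.5%. At 6 M and more they were 0 of 29 cells in PLT, which allows up to 11.9%, and 12.5% and 17.9% in PEM and MUL. The order was the same in each range of depth, and the deepest cells of PEM and MUL had the lowest shares.

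Traces followed the same order as the cells with Cd34 RNA. Among cells under 1 RPKM, a trace was present in 2.17% and 20.5% of PLT cells, in 45.95% and 47.6% of PEM cells, and in 57.1% and 72% of MUL cells, by mouse. The types had the same order in both measures, without overlap between mice of different types. All traces of a mouse summed to 4 and 25 reads in PLT, 65 and 17 in PEM, and 51 and 98 in MUL. All Cd34 reads of a mouse summed to 636 and 9664 in PLT, 33420 and 12521 in PEM, and 61250 and 95522 in MUL. A share of cells above 0 RPKM counts these traces too, and came to 14.7% in PLT, 56.5% in PEM and 76.4% in MUL. Whether traces are reads of the cell itself was not tested.

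Genes with the profile most like Cd34 over the 6 mice were ranked by the root mean square distance of centred log2(mean RPKM + 1) values. Ctla2a, which encodes a cysteine protease inhibitor, was nearest at 0.33, against a median distance of 1.93 over all genes and a range of Cd34 itself of 5.63. Ctla2a had 13.7 and 79.6 RPKM in PLT, 162 and 154 RPKM in PEM, and 286 and 516.5 RPKM in MUL mice. Ctla2b, the 1 gene called between PLT and MUL, is a close relative of Ctla2a, and reads may be split between these similar copies. The next were Rnf135, a ubiquitin ligase of RIG-I signalling (0.56), Cd69, an early activation antigen of lymphocytes (0.57), and Xlr4a (0.57). Leng1, Fbxo25, Cdk10, Pfkm, Enox2 and Nsun5 followed at 0.59 to 0.65. A distance under 1 was found for 83 genes. The distance compares mean levels, and the shares of cells did not always follow Cd34. Xlr4a was found in 14.0% and 20% of PEM cells and in 20.5% and 32.9% of MUL cells. For Cdk10 these shares were 15.05% and 12% in PEM and 6.41% and 11.8% in MUL.

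**Figure D4:**
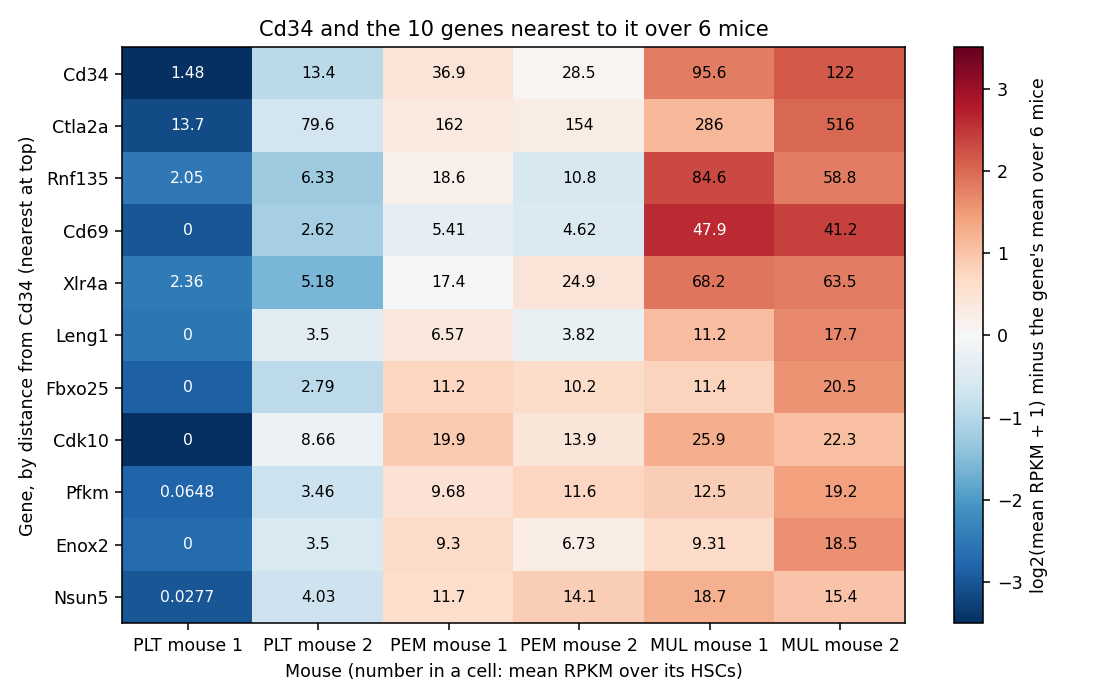
Colours give log2(mean RPKM + 1) minus the mean of the gene over the 6 mice, and the printed numbers give the mean RPKM, with mice in columns and genes in rows. Cd34 and the 10 nearest genes are lowest in PLT mouse 1 and highest in the MUL mice. The 10 genes were picked for their likeness to Cd34, so this order follows from the choice.

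Ctla2a was found in far more cells than Cd34. It was at 1 RPKM or more in 61.3% and 61.9% of PLT cells, 90.3% and 84% of PEM cells, and 91.03% and 100% of MUL cells. Its median level in those cells was 5.70 and 15.01 RPKM in PLT, 129 and 170 in PEM, and 127 and 404 in MUL. Over the cells within a mouse, the Spearman correlation of Ctla2a with Cd34 was 0.15, 0.10 and 0.01 in PEM mouse 1, MUL mouse 1 and MUL mouse 2.

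Relatives and partners of CD34 were described by the same measures. Podxl, the sialomucin podocalyxin, had 0.000613 and 1.74 RPKM in PLT, 3.06 and 2.80 in PEM, and 0 and 0.370 in MUL. Emcn, the sialomucin endomucin, had 11.1 and 40.7 RPKM in PLT, was listed at 0 in both PEM mice, and had 62.7 and 56.6 RPKM in MUL. The list of sialomucins, selectins and adaptors had 9 tested members of 10, and 0 passed in any comparison. Its median log2 change was -0.54 between PLT and MUL, where the median over all genes was -0.18. It was -0.19 between PEM and MUL (-0.04 over all genes) and -0.45 between PLT and PEM (-0.13 over all genes).

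Most genes of surface proteins used to part HSCs from progenitors had lower values in PLT, and 0 of the 20 tested (of 23) passed limma's adjusted threshold in any comparison. Their log2 change was negative in 17 of 20 for PLT minus MUL, with a median of -1.13, and 11 had both PLT mice below both MUL mice, as did 24.9% of all genes. For PEM minus MUL 11 of 20 were negative, with a median of -0.03. Cd27, a TNF receptor family member of multipotent and lymphoid progenitors, had 22.7 and 0.542 RPKM in PLT, 85.4 and 111 in PEM, and 139 and 187 in MUL. Its log2 difference was -4.74 for PLT minus MUL (limma adjusted p = 0.461), close to that of Cd34. Like Ctla2a, it was present in most PEM and MUL cells, in 87.1% and 52% of PEM and 84.6% and 100% of MUL cells. In the PLT mice Cd27 was found in 23.7% and 1.19% of cells, against 61.3% and 61.9% for Ctla2a.

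Slamf1 and Cd38 had higher means in PLT than in MUL mice. Slamf1, which encodes the CD150 of the sort gate, had 78.3 and 35.05 RPKM in PLT, 65.8 and 41.0 in PEM, and 19.97 and 4.25 in MUL. Cd38, a surface enzyme that adult mouse HSCs carry, had 86.5 and 61.3 RPKM in PLT, 37.0 and 60.2 in PEM, and 29.9 and 26.03 in MUL. Neither passed limma's test between PLT and MUL (adjusted p = 0.495 and 0.514). Cd48, whose protein the gate excludes, was at 1 RPKM or more in 4 of all sorted cells.

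Flt3, a cytokine receptor that appears as HSCs become multipotent progenitors, was found in few cells, nearly all with Cd34 RNA. It reached 1 RPKM in 0 cells of either PLT mouse, in 1 cell of each PEM mouse, in 2 cells of MUL mouse 1 and in 7 of MUL mouse 2. Of these 11 cells, 10 had Cd34 RNA, at 165 to 486 RPKM, and the remaining cell was in MUL mouse 2. Over all sorted cells, 7 of 177 in PLT, 23 of 118 in PEM and 57 of 163 in MUL had Cd34 RNA. The early lymphoid and myeloid priming list as a whole had 0 of 14 tested members past the threshold, with 11 of 14 lower in sign for PLT minus MUL and a median of -1.30. Over all genes that median was -0.18. Dntt, Mpo, Elane and Ctsg, genes of committed lymphoid or granulocyte progenitors, were listed at 0 in every mouse. Prtn3, a granule protease gene of the same list, was at 1 RPKM or more in 291 cells (63.5%), 70 of them with Cd34 RNA. Its mouse means were 220.2 and 61.9 RPKM in PLT, 367 and 55.6 RPKM in PEM, and 169 and 402 RPKM in MUL, so the types overlapped. Ms4a3, another granulocyte progenitor gene, averaged 0 and 0.987 RPKM in PLT, 4.89 and 6.88 RPKM in PEM, and 3.19 and 2.57 RPKM in MUL.

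Regulators of blood stem cells were read from a list of transcription factors. Of 20 transcription factor genes 19 were tested and 0 passed, with a median log2 change of -0.23 between PLT and MUL and of -0.18 between PEM and MUL. Over all genes these medians were -0.18 and -0.04. Among factors that bind the ETS letters, Fli1 had 256 and 161 RPKM in PLT, 115 and 83.0 in PEM, and 146 and 85.3 in MUL. Sfpi1, the gene of PU.1, had 9.05 and 6.42 RPKM in PLT, 55.2 and 66.7 in PEM, and 39.2 and 52.7 in MUL. Myb had 49.3 and 67.4 RPKM in PLT, 57.6 and 35.2 in PEM, and 69.8 and 49.6 in MUL, with the 3 types overlapping. The HSC identity list, with 16 tested members, had a median log2 change of 0.38 in PLT over MUL and -0.44 in PEM over MUL, with 0 past the threshold.

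S phase genes were read as a measure of division. For PEM minus MUL the log2 change of 23 of 24 was positive, with a median of 0.80, and 0 passed. For PLT minus MUL 14 of 24 were positive, with a median of 0.15. G2-M genes had medians of -0.39 in PLT over MUL and -0.18 in PEM over MUL.

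Neighbouring genes on the chromosome were level or low. Cr1l, a complement regulator 136 kb away, had 150.0 and 161 RPKM in PLT, 111 and 148 in PEM, and 140 and 129 in MUL. Cd46, also a complement regulator, had 7.15 and 0 RPKM in PLT, 2.11 and 0 in PEM, and 0 and 10.9 in MUL. Plxna2 and Cr2 stayed at or under 1.85 RPKM in every mouse.

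Within mice, no gene followed Cd34 closely from cell to cell. PEM mouse 1, MUL mouse 1 and MUL mouse 2 had at least 10 cells on either side of 1 RPKM, with 256 cells in all and 76 with Cd34 RNA. Over 3319 genes found in at least 20% of the cells of each, the mean Spearman correlation had a median of 0.04, and 98% of the genes lay between -0.15 and 0.21. The highest was Sash3, an adaptor of lymphocyte signalling, at 0.23, 0.39 and 0.33 in the 3 mice. Mlf2 had 0.26, 0.28 and 0.39, and Nono, a nuclear RNA-binding protein, 0.34, 0.33 and 0.16. Phf6, Snx1, Tomm22, Prcp and Lsm5 followed with means of 0.25 to 0.27. At the low end were Vmn2r-ps129 with a mean of -0.23, Ndufa6 with -0.20, Snhg11 with -0.19 and Rin1 with -0.18. The cells of a mouse are daughters of a single clone and are not replicates, and correlations this weak in sparse values are no finding.

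Depth and complexity stood beside these correlations. Cd34 correlated with the number of detected genes at 0.16, 0.30 and 0.34 in PEM mouse 1, MUL mouse 1 and MUL mouse 2. With mapped reads it correlated at -0.00, -0.25 and -0.30. With the mitochondrial percent of reads it correlated at -0.29, -0.06 and -0.17. That percent had medians of 6.55 ± 0.20 in PLT, 4.02 ± 0.01 in PEM and 5.70 ± 0.51 in MUL (SD of mouse medians, n = 2 each), and its part in the Cd34 values was not tested. The median cell with Cd34 RNA had 3338 detected genes in PEM mouse 1, 2372 in MUL mouse 1 and 2734 in MUL mouse 2. Cells at 0 had 3061, 2004 and 2297.

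Genes were also compared by how often they were found at 1 RPKM or more in cells with Cd34 RNA and in the other cells of the same mouse. More genes were found in Cd34 cells, with a median difference over the 3319 genes of 5.05 percentage points. Of these genes, 34.6% were more frequent there in each of the 3 mice. Only 3.46% were less frequent in each. The surface list had 6 of 23 members more frequent in each of the 3 mice (26.1%) and 0 less frequent. Only 9 of the 23 were found in enough cells to belong to the 3319 genes, so this share cannot be ranked against theirs.

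Procr, the gene of the endothelial protein C receptor, a marker of primitive HSCs, was among the 6. It was found in 42.1% of Cd34 cells and 29.7% of the others in PEM mouse 1. In MUL mouse 1 it was found in 31.8% of Cd34 cells and 17.9% of the others, and in MUL mouse 2 in 34.3% and 18%. Its mean difference over these mice was 14.2 points, between the 5% and 95% points over the 3319 genes (-5.19 and 17.3). Among other HSC markers, Kit, Ly6a, Slamf1, Hlf, Mecom and Fgd5 differed in sign between mice. Esam, Ptprc, Flt3 and Cd9 were also among the 6. The CD34 family list had 4 of 10 members more frequent in each mouse (Crkl, Selplg, Selp and Cd164), beside 34.6% of the 3319 genes. Only 2 of the 10 pass the 20% rule.

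**Figure D5:**
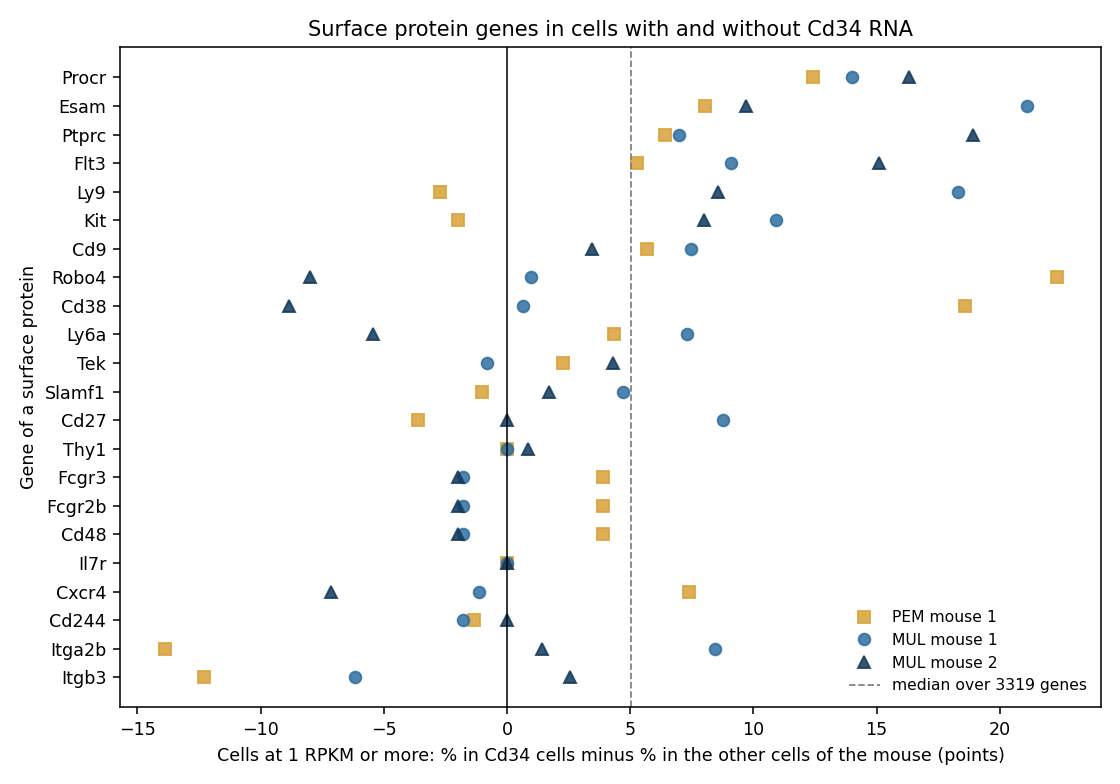
For genes of surface proteins (rows), points give the percent of Cd34 cells at 1 RPKM or more minus the percent of the other cells of the same mouse, in percentage points, for PEM mouse 1, MUL mouse 1 and MUL mouse 2. The dashed line is the median over 3319 genes, 5.05 points, and Procr, Esam, Flt3 and Ptprc lie right of it in each mouse.

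Genes less frequent in Cd34 cells of each mouse were few. Cenpf, a kinetochore protein gene of G2 and mitosis, was found in 3 of 19 Cd34 cells and 32 of 74 others in PEM mouse 1. It was found in 7 of 22 Cd34 cells and 30 of 56 others in MUL mouse 1, and in 12 of 35 and 25 of 50 in MUL mouse 2. Of the 24 G2-M genes, 8 (33.3%) were more frequent in Cd34 cells of each mouse and Cenpf alone (4.17%) less frequent. Of the 3319 genes 34.6% and 3.46% were, but only 6 of the 24 pass the 20% rule of that set. Vwf, the marker of the transplanted clones, was found in 7 of 19 Cd34 cells and 44 of 74 others in PEM mouse 1, in 2 of 22 and 7 of 56 in MUL mouse 1, and in 3 of 35 and 10 of 50 in MUL mouse 2. Cdkn1c and Egr1 were the other 2 of the 16 HSC identity genes that were less frequent in each mouse (18.8% with Vwf). Hoxa9, Hoxb5 and Ctnnal1 were more frequent (18.8%), and 6 of the 16 pass the 20% rule. Some of these differences rest on few cells. Egr1 was found in 0 of 19 Cd34 cells and 2 of 74 others in PEM mouse 1, and Ctnnal1 differed by 0.286 points in MUL mouse 2.

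S phase genes gave 11 of 24 members more frequent in Cd34 cells of each mouse (45.8%) and 0 less frequent. Of the 3319 genes 34.6% and 3.46% were, but only 8 of the 24 pass the 20% rule of that set. Fen1, a nuclease of DNA replication, was found in 10 of 19 Cd34 cells and 23 of 74 others in PEM mouse 1. In MUL mouse 1 it was found in 8 of 22 Cd34 cells and 12 of 56 others, and in MUL mouse 2 in 13 of 35 and 7 of 50. At least 5 of the 24 genes were found together in 68.4% of Cd34 cells and 47.3% of others in PEM mouse 1. The same count was 40.9% and 30.4% in MUL mouse 1, and 28.6% and 24% in MUL mouse 2. In PEM mouse 2 it was 1 of 4 Cd34 cells and 12 of 21 others. For the 24 G2-M genes the same count was 36.8% of Cd34 cells and 18.9% of others in PEM mouse 1. It was lower in Cd34 cells of both MUL mice, at 18.2% and 32.1% in MUL mouse 1 and 22.9% and 30% in MUL mouse 2. In PEM mouse 2 it was 2 of 4 Cd34 cells and 9 of 21 others. Because Cd34 cells held more detected genes in general, the part of that in these shares was not tested.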

How the data were processed

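Each of the 458 samples was 1 cell, with a library from Clontech's SMARTer Ultra Low kit, per the labels. TopHat, featureCounts and mm10 were used, per the submitters' processing notes; their versions are not given in the sources used here. The deposited expression table holds RPKM values made by the authors, and the read total behind them is not given. A second deposited table gives per cell a count of mapped reads, a number of genes detected and a percent of mitochondrial reads, per the file headers. No cell was removed, doublets were not searched for since cells were sorted singly into wells, and 0 columns were left unused.

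The mouse was the replicate: the mean RPKM of its cells was taken, and log2(mean RPKM + 1) was fitted with limma 3.58.1 in R 4.3.3. The fit had 1 mean per type over 6 mice, trended eBayes and Benjamini-Hochberg adjustment over 11337 genes that reached a mean of 1 RPKM in 2 or more mice, at a threshold of 0.05. The mice of a type are separate animals by their titles. Fold changes on this scale understate those of low genes. Reads of Cd34 were recovered from the RPKM steps of low genes; 95.2% of values under 50 reads came out within 0.02 of whole over all genes seen in at least 50 cells. They were not used in a count model. The fit, the correlation and the read recovery were tested on simulated data.

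Named genes were the members of 7 lists, the 10 nearest profiles, and the 8 highest and 4 lowest mean correlations with one sign in each eligible mouse. Some named genes are not reported here. Predicted genes were not described, apart from Gm16897, which overlaps Cd34. Ctla2b and the neighbours of Cd34 were named after their values were seen. Cd34 and the lists were chosen with earlier results of these data known. Other cell types were counted at 3 markers at 1 RPKM or more. Gene positions came from GENCODE M21. Motifs were searched in RefSeq promoters on both strands.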

Additional observations from a re-analysis of the deposited data

How the results depend on the processing

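No paired analysis was possible because the replicate numbers only follow the accession order and no label pairs mice. The log2 difference of Cd34 kept its sign and stayed short of the adjusted threshold in 63 of 63 recomputations with other pseudocounts, filters, scalings, variance models, plates, cells or mice. It ranged from -5.46 to -2.56 for PLT minus MUL (limma adjusted p = 0.108 to 0.977), from -2.64 to -1.47 for PEM minus MUL (0.505 to 1) and from -3.75 to -1.08 for PLT minus PEM (0.363 to 0.880). With 1 mouse left out at a time these differences spanned -5.46 to -2.91, -1.88 to -1.52 and -3.75 to -1.21; a lone mouse was assumed to vary like the other types.

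The share of cells with Cd34 RNA differed by more in cells above 0 RPKM (-61.7 points for PLT minus MUL and -41.8 for PLT minus PEM) and by less in cells with 1800 to 3000 detected genes for PLT minus PEM (-8.30). With 1 mouse left out the share difference spanned -37.1 to -24.1 points for PLT minus MUL, -22.96 to -9.99 for PEM minus MUL and -17.1 to -11.1 for PLT minus PEM. The log2 ratio of the level among cells with Cd34 RNA spanned -1.35 to -0.92, -1.17 to -0.73 and -0.28 to -0.09 in these 3 comparisons.

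The count of genes called for PLT minus MUL was 1; it was 0 with pseudocount 0.1, a mean of log2 values, no variance trend, either plate alone or 1800 to 3000 detected genes, 2 with pseudocount 10, a 5 RPKM filter or 3 to 7 M reads, 4 with quantile normalization and 19 with no filter. For PEM minus MUL it was 0, against 9 with no filter and 1 with 3 to 7 M reads or without cells with markers of another type. For PLT minus PEM it was 0, against 4 with no filter. With 1 mouse left out it spanned 0 to 1 for PLT minus MUL and was 0 in both other comparisons. Of 48 recomputed correlations 9 moved by more than the spread between mice. An alternative added after seeing the data set values below 1 RPKM to 0 and gave Sash3 a mean of 0.20, Mlf2 0.16 and Phf6 0.06.

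The 2 mice of a type, the 25 cells of PEM mouse 2 and the 7 Cd34 cells of the PLT mice limit these estimates. Intervals for shares cover counting error within a mouse and not the spread between clones.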
